A study of Mus musculus with 2 samples.

Results

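The Wnt genes of a mouse glioblastoma stem cell line were compared between cells carrying an shRNA against Gli2 and cells carrying a non-target control shRNA. The set was defined by gene name, with earlier results of these data known. It holds 58 genes with 84 probes, out of 23784 genes that could be named on the array. It comprises 19 Wnt ligands, the ligand-acylating enzyme Porcn, 12 Frizzled receptors and Lrp coreceptors, 6 R-spondins and receptor ubiquitin ligases, 13 extracellular antagonists, 4 Tcf/Lef nuclear factors and 3 feedback inhibitors. Both groups came from a single line, grown as neurospheres with EGF and bFGF and derived from brain tumours made de novo in mice with a Sleeping Beauty (SB) transposon. Each was stably transduced with lentivirus, the Gli2 shRNA group with the Gli2 hairpin and the control group with the non-target hairpin. The vector's promoter, the number of hairpins and the age of the mice are not given in the sources used here. Each group had 1 array, so no difference below has a replicate check and none was tested.

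Wnt proteins are secreted lipid-modified signals. They bind Frizzled receptors together with Lrp5 or Lrp6, which stabilises beta-catenin and turns on Tcf/Lef target genes such as Axin2, or they act without beta-catenin through receptors such as Ror2 and the planar cell polarity proteins. Sfrp and Wif1 proteins bind Wnts outside the cell, Dkk proteins act mainly on the Lrp coreceptors, and Rnf43 and Znrf3 remove Frizzled from the surface unless R-spondins restrain them. In the brain this pathway patterns the neural tube and acts on neural stem cells.

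Signals are the background-subtracted processed intensities of the 1-colour Agilent arrays. A difference is the log2 signal in the Gli2 shRNA array minus that in the control array, after each array was scaled to its own 75th percentile (a signal of 399 in the Gli2 shRNA array and 329 in the control array). An equal signal on both arrays is therefore a difference below 0. Ctnnb1, for example, had nearly equal signals of 5264 and 5221 and a difference of -0.27. The error beside a difference is the error that the scanner software modelled for the spots, and it does not cover the cultures. A gene counted as measured where its probe was well above background, which held for 57.1% of probes on the Gli2 shRNA array and 59.5% on the control array. The lowest such signals were 15.2 and 12.8 in the same order of arrays. For a gene measured on 1 array only, a bound is given with the dim array raised, where needed, to this lowest signal. It is not a strict minimum. A second Axin2 probe with higher signals (18.1 and 15.3) was not well above background. Gli2 itself, the targeted gene, had a signal of 57.9 in the Gli2 shRNA array and 98.1 in the control array, a difference of -1.04 ± 0.22 on its 1 probe, or 2.05-fold. It was -0.90 with median scaling over all probes, -0.98 with cyclic loess and -0.64 after normexp. Normexp is a model-based background correction with an added offset of 50, which by itself shrinks differences of dim signals.

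The labelled cell type was set against marker genes. All 8 neural stem cell markers were measured on at least 1 array, with Fabp7 at 91127 and 82583 and Sox2 at 6516 and 5594 in the Gli2 shRNA and control arrays, and Prom1 was near background (20.2 and 14.6). Of 8 pericyte and fibroblast markers, 1 was measured on both arrays and 5 on neither, and their summed signal was 80.7 in the Gli2 shRNA array and 77.8 in the control array. Of 6 endothelial markers 4 were measured on neither array (summed signals of 129.9 and 129.6). Among the 7 microglia and macrophage markers, Itgam (5413 and 4694) and Csf1r (432 and 390) were measured on both arrays, whereas Cx3cr1 and Ptprc were measured on neither. Aif1, Tmem119 and P2ry12 were measured on the control array only, near background. Their bounds were 1.40-fold, 1.72-fold and 1.53-fold lower in Gli2 shRNA cells. The summed signal of the 7 microglia and macrophage markers was 5884 in the Gli2 shRNA array and 5148 in the control array. Summed signals are not scaled between arrays, and most of this sum came from Itgam. After scaling, Itgam differed by -0.07 and Csf1r by -0.13.

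Markers of neurons, astrocytes and oligodendrocytes were mostly measured too. Of 7 neuron markers 6 were measured on both arrays, from -0.93 for Dcx (292 and 458 in the Gli2 shRNA and control arrays) to 0.74 for Tubb3 (1583 and 781), and the list summed to 22601 and 23903. Of 7 astrocyte markers 5 were measured on both arrays and all 5 lay below 0 (-0.62 to -0.12), but Aqp4, Slc1a2 and Aldoc were within their software errors. The astrocyte list summed to 40565 and 37747 unscaled, mostly from Aldoc (40050 and 37199, -0.17 after scaling). Gfap was measured on the control array only, with 16.5 in the Gli2 shRNA array and 21.3 in the control array (-0.64 ± 0.43). Of 6 oligodendrocyte markers 5 were measured on both arrays (-0.60 to 0.22, summing to 921 and 737). No gene of the marker lists that was measured on both arrays was past 2-fold, and no bound was. Among marker genes measured on 1 array only, the differences before the dim array was raised were larger for Aif1 (-1.91), P2ry12 (-1.84) and Col3a1 (1.68). All 3 were near background, so their sizes are not settled. The part of the marker lists in the differences of the Wnt genes was not tested. In such a bulk RNA sample, fewer cells that express a gene and less RNA per cell cannot be told apart.

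Among the 58 Wnt genes, 36 were well above background on both arrays. Wnt9a was so on the Gli2 shRNA array only, Sfrp1 on the control array only, and 20 genes on neither. The ligands Wnt4 and Wnt6 and the secreted antagonists Dkk3, Sfrp2 and Sfrp4 were 2.43-fold to 2.85-fold higher in Gli2 shRNA cells. These 5 genes were the members higher by 2-fold or more among the 36, against 1.84% of the 14563 named genes measured on both arrays. None of the 36 was lower by 2-fold or more, against 1.79% of all genes. Over all genes 268 were higher and 260 lower by that much, or 384 and 176 with median scaling over all probes. With normexp none of the 5 was past 2-fold (0.29 to 0.86), and of the 5 only Sfrp4 had a signal of at least 50 on both arrays. Adding the normexp offset of 50 by itself shrinks differences at signals this dim, so the fall cannot decide whether the 5 genes differ. The feedback inhibitors Axin2, Nkd1 and Nkd2 lay between -0.16 and 0.16 on their brightest probes, and the Tcf/Lef factors between -0.31 and 0.48.

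**Figure D1:**
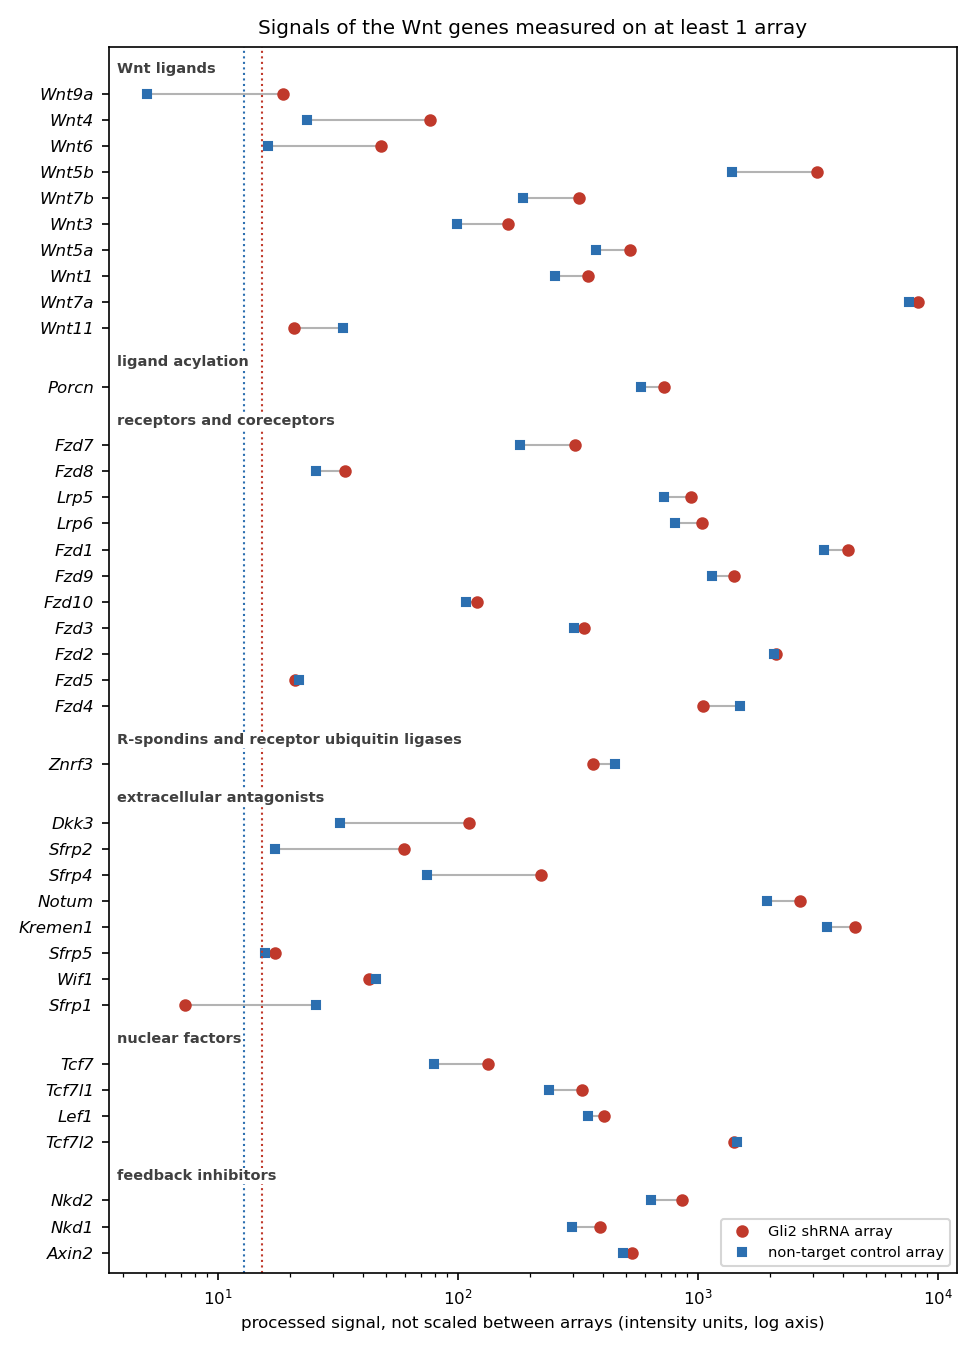
Processed signal (log axis) of the 38 Wnt genes measured on at least 1 array, with the Gli2 shRNA array as red circles and the non-target control array as blue squares. Dotted lines mark the lowest signal well above background on each array (15.2 red, 12.8 blue). Wnt4, Wnt6, Dkk3 and Sfrp2 had control signals between 16.2 and 32.2, close to these lines, whereas both Wnt5b signals were above 1000.

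Over the 36 genes the differences ran from -0.96 to 1.51, with 23 above 0 and 13 below, and their median was 0.10. Over all named genes measured on both arrays the median was 0.003, and 50.3% lay above 0. The counts past 2-fold were also split by signal strength, whose part in the sizes was not tested. Of 8 members whose signal was under 100 on both arrays, 3 (Wnt4, Wnt6 and Sfrp2) were higher by 2-fold or more, against 2.49% of all genes in that class. Of 18 members whose brighter array gave 100 to 1000, 2 (Dkk3 and Sfrp4) were higher by 2-fold or more, against 162 of 4797 named genes. None of the 10 members at 1000 or more was past 2-fold, against 35 higher and 63 lower among 6919 named genes.

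**Figure D2:**
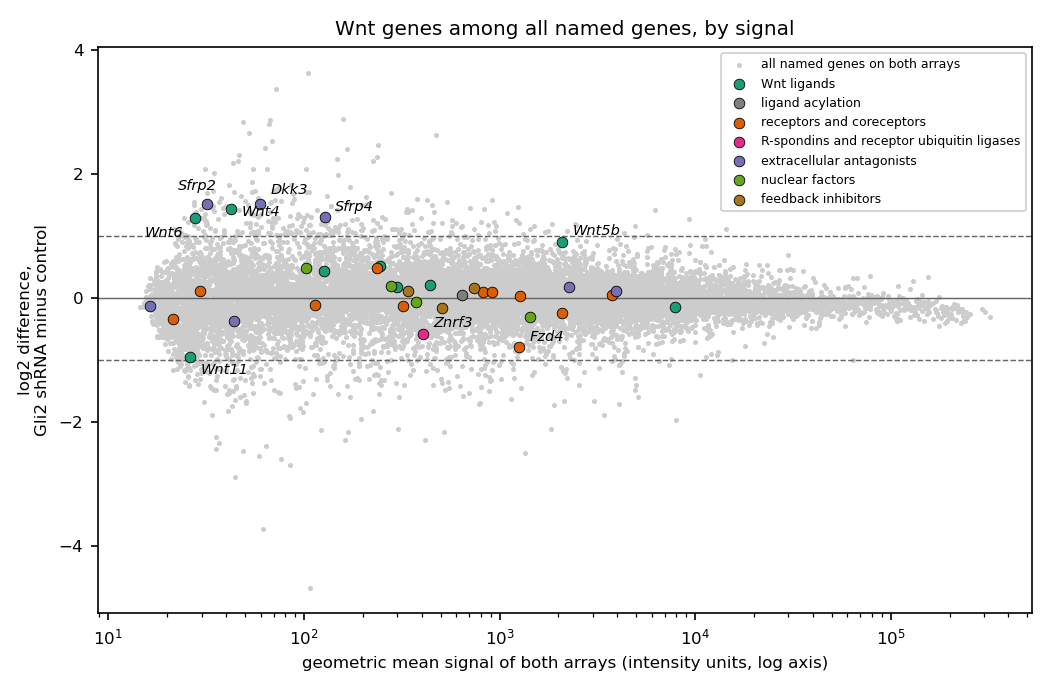
Log2 difference (Gli2 shRNA minus control) against the geometric mean signal of both arrays (log axis) for all named genes measured on both arrays (grey) and the 36 Wnt genes (coloured by role). Dashed lines mark 2-fold. The 5 Wnt genes above the upper line have mean signals under 200, and Wnt5b, at a mean signal above 1000, lies just below it.

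The RefSeq promoter table (build GRCm38.p6) holds windows for 38 of the 58 genes, with 47 starts. Among the 5 genes past 2-fold it holds Wnt4, Wnt6 and Sfrp2, and their 250 bases before the start are shown because these genes had higher signals under knockdown of a DNA-binding factor. Capitals mark each match to the hexamer CCACCC, the core of the GLI consensus GACCACCCA, on either strand. The windows, all on the + strand, are Wnt6 at chr1:74771642-74771891, Sfrp2 at chr3:83766071-83766320 and Wnt4 at chr4:137277385-137277634.
Wnt6: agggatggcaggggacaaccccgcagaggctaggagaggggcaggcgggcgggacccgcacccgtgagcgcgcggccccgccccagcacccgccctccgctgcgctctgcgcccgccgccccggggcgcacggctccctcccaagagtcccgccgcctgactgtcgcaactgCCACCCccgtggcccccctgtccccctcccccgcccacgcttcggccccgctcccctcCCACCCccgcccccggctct
Sfrp2: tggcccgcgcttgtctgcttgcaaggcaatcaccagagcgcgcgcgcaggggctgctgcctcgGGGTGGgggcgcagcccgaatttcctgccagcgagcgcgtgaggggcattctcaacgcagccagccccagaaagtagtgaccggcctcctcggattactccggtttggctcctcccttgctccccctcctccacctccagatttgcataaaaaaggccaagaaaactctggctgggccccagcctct
Wnt4: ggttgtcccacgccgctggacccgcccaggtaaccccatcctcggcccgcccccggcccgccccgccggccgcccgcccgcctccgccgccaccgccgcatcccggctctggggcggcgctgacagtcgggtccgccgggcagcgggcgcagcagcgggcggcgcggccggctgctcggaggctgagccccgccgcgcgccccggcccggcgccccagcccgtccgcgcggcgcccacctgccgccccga

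The Wnt6 window held the hexamer at 78 and 20 bases before the start and the Sfrp2 window at 187 bases before it on the reverse strand, while the Wnt4 window held none. Over the members, 21 of 47 windows (44.7%) held it, against 28.1% of all 32851 RefSeq windows of this length. Several starts of a gene were counted separately, and overlapping windows of Lef1 shared a match, so the windows are not independent. The members' windows were also richer in G and C, with a median of 66.4% against 52.4%. The full consensus GACCACCCA was in none of the members' windows and in 0.225% of all windows. The Tcf/Lef motifs, spelled CTTTGA or CTTTGT followed by A or T and searched on both strands, were in 6 of the members' windows (12.8%) and in 14.8% of all windows. The hexamer lies inside the GLI consensus, and neither overlaps the Tcf/Lef motifs. A match is a run of letters and not evidence of binding.

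Of the 19 ligand genes, 9 were measured on both arrays, and 7 of these lay above 0 with a median of 0.43. Wnt5b, a ligand known mainly for signalling without beta-catenin and lying on chromosome 6, had a signal of 3134 in the Gli2 shRNA array and 1381 in the control array. Its difference was 0.91 ± 0.20, or 1.87-fold, and a second probe gave 0.81 ± 0.20 at signals of 813 and 384. It kept 0.86 to 1.04 in all alternative settings, normexp included (0.94). Both probes thus gave a higher signal in Gli2 shRNA cells, short of 2-fold except with median scaling over all probes (1.04).

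Wnt4, which acts in kidney and female reproductive tract development, had a signal of 76.2 in the Gli2 shRNA array and 23.4 in the control array (1.42 ± 0.29, 2.68-fold). For Wnt6, a ligand of epithelia and neural crest induction, the signals were 47.5 and 16.2 in the same order (1.28 ± 0.33, 2.43-fold). Both control signals were close to the limit of 12.8, and with normexp the differences were 0.49 and 0.29. Wnt9a was measured on the Gli2 shRNA array only (18.6, against 5.06 in the control array), with a bound of 1.20-fold higher. It did not reach the 2-fold bound that 31.1% of genes measured on that array only reached. With normexp the difference of Wnt9a was 0.02, below its own bound, so no minimum fold is set.

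The forebrain ligand Wnt7b differed by 0.51 ± 0.21 on its brightest probe (320 and 186 in the Gli2 shRNA and control arrays) and by 0.18 on the other. Wnt3, which acts in gastrulation and limb formation, had signals of 162 and 99.3 (0.43 ± 0.21). Wnt1, the ligand of the midbrain-hindbrain boundary, had 349 and 254 (0.18 ± 0.21). Wnt7a, which promotes brain vessel formation together with Wnt7b, had 8280 and 7599, and its 2 probes gave -0.15 and -0.20. The last 2 genes lay within the software error of 0.

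Wnt5a, the closest relative of Wnt5b, had no settled direction. Its brightest probe gave 0.20 ± 0.20 (521 in the Gli2 shRNA array and 374 in the control array), a second gave -0.19 ± 0.23 (56.4 and 52.9). Another, measured on the control array only, had signals of 13.6 and 23.5 (-1.07 ± 0.48). Wnt11, another ligand of beta-catenin-independent signalling, was the lowest of the 36 genes. Its signals were 20.6 in the Gli2 shRNA array and 33.0 in the control array (-0.96 ± 0.34), with -0.43 ± 0.37 on its other probe and -0.39 on the first after normexp. The other 9 ligands (Wnt2, Wnt2b, Wnt3a, Wnt8a, Wnt8b, Wnt9b, Wnt10a, Wnt10b and Wnt16) were not well above background on either array, with signals of at most 11.8. Porcn, the acyltransferase that Wnts need for secretion, had 718 and 576 in the Gli2 shRNA and control arrays (0.04 ± 0.20).

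Fzd4, the Frizzled that also binds Norrin in blood vessels (chromosome 7), had the biggest difference among the Frizzled and Lrp genes of the set. Its signal was 1049 in the Gli2 shRNA array and 1500 in the control array, a difference of -0.79 ± 0.20 or 1.73-fold. The value stayed between -0.81 and -0.66 in all alternative settings, including -0.79 with normexp. Fzd4 was thus lower, short of 2-fold, at a signal far above background.

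Fzd7, a receptor of stem and progenitor cells, had 307 and 181 in the Gli2 shRNA and control arrays (0.49 ± 0.21, and 0.31 with normexp). The other 7 Frizzled genes measured on both arrays lay between -0.34 and 0.11. Fzd2 gave -0.25 ± 0.20 at signals of 2105 and 2070. Fzd1 had 4201 and 3361 (0.04 ± 0.20). Fzd1, Fzd9 (0.03), Fzd3 (-0.14), Fzd10 (-0.12), Fzd8 (0.11) and Fzd5 (-0.34) lay within their software errors of 0. The signs of Fzd10 and Fzd8 flipped under other scalings or normexp, so neither has a direction. A second Fzd5 probe, measured on the Gli2 shRNA array only, gave 0.13 at signals of 17.0 and 12.8. Fzd6 was measured on neither array. The coreceptors Lrp5 (934 and 720) and Lrp6 (1037 and 804) differed by 0.10 and 0.09, with -0.16 on the other probe of Lrp6.

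Znrf3, the membrane ubiquitin ligase that removes Frizzled from the cell surface and is itself a Wnt target, was lower on all 3 probes. Its brightest probe had 365 in the Gli2 shRNA array and 451 in the control array (-0.58 ± 0.20). The other probes gave -0.98 ± 0.21 (123 and 200) and -0.86 ± 0.23 (63.5 and 95.2), and the mean of all 3 was -0.81. None reached 2-fold. Its paralogue Rnf43 and the 4 R-spondins, the ligands that restrain both enzymes, were measured on neither array.

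**Figure D3:**
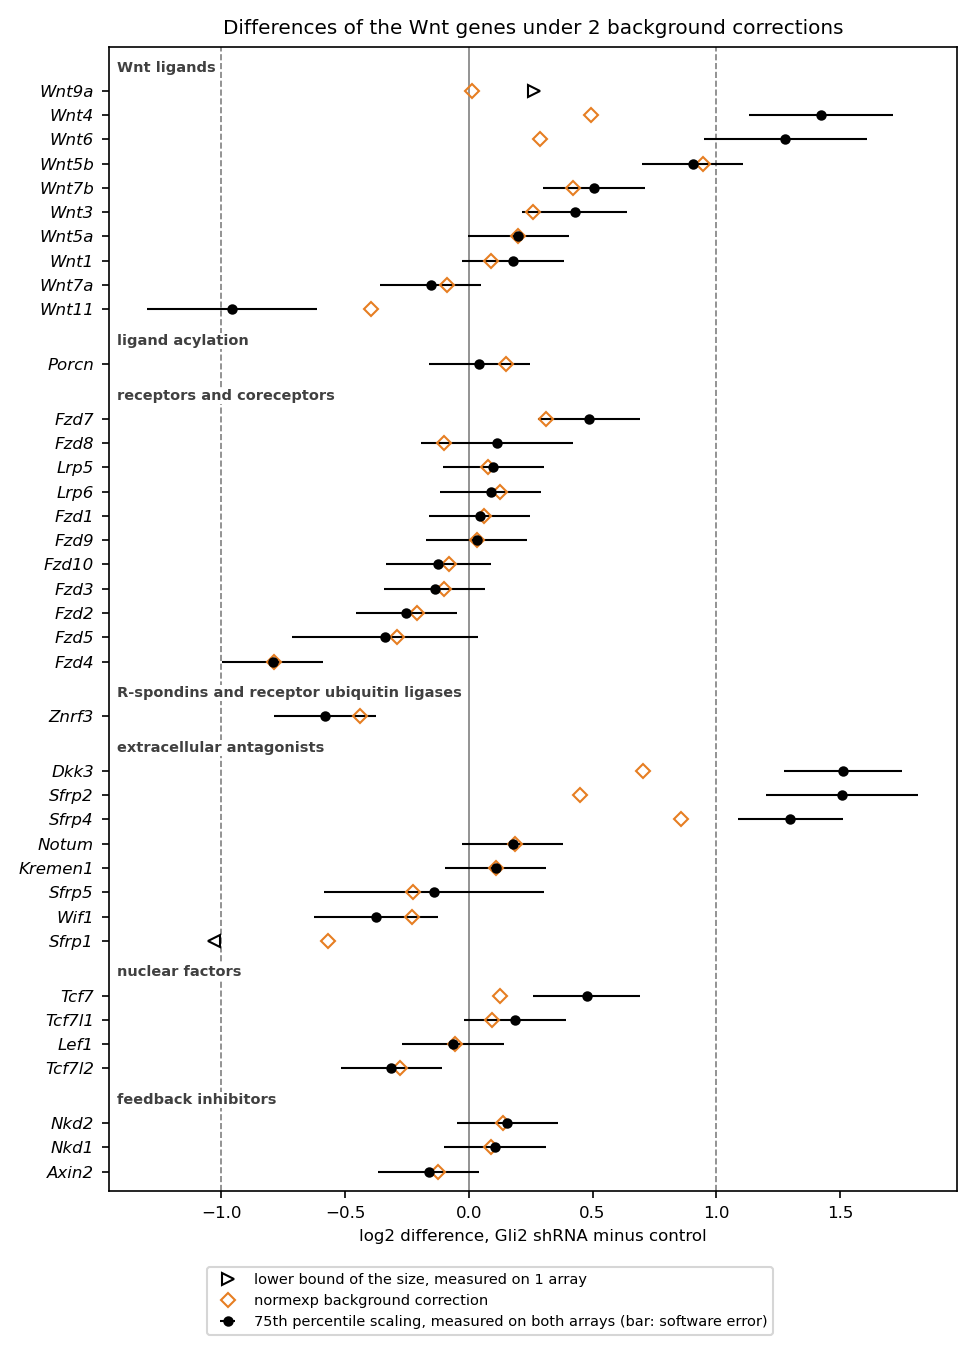
Log2 difference (Gli2 shRNA minus control) of the 38 Wnt genes by role, as black points with the scanner software's error. Open triangles are the bound of a gene measured on 1 array, which is not a strict minimum. Orange diamonds are differences after normexp background correction. Dashed lines mark 2-fold. Wnt5b and Fzd4 keep their values under both corrections (0.91 and 0.94, -0.79 and -0.79), while Dkk3, Sfrp2, Sfrp4, Wnt4 and Wnt6 fall within 2-fold after normexp. The normexp offset of 50 by itself shrinks differences of dim genes and hardly moves those of bright genes.

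Of the 13 extracellular antagonists, 7 were measured on both arrays, with a median of 0.18. Among these 7, 3 were higher by 2-fold or more, against 1.84% of all named genes measured on both arrays. Dkk3, a divergent Dickkopf protein whose action on Wnt signalling differs between systems (chromosome 7), had 111 in the Gli2 shRNA array and 32.2 in the control array (1.51 ± 0.24). A second Dkk3 probe was measured on the Gli2 shRNA array only, at 18.8 against 7.57 (1.03 ± 0.62), and another was measured on neither array. Sfrp2, a Wnt-binding secreted protein, had 59.5 and 17.3 in the same order (1.51 ± 0.31).

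Sfrp4, a further member of the Sfrp family (chromosome 13), had 221 in the Gli2 shRNA array and 74.1 in the control array (1.30 ± 0.21, 2.46-fold). It was also past 2-fold when a signal of at least 50 was required on both arrays. After normexp its difference was 0.86, that of Dkk3 0.70 and that of Sfrp2 0.45. These 3 genes were higher under all alternative settings that gave them a value, but by differing amounts.

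Sfrp1, the antagonist described as a Hedgehog target (chromosome 8), went the other way. It was measured on the control array only, with 7.27 in the Gli2 shRNA array and 25.5 in the control array. Its bound was 2.04-fold lower. A bound of 2-fold or more lower was reached by 18.2% of the 931 genes measured on the control array only. With normexp the difference of Sfrp1 was -0.57, short of 2-fold. The 4 Sfrp genes that were measured thus differed in direction, and Sfrp5 (17.2 and 15.6, -0.14 ± 0.44) has no settled direction, since its sign flipped with quantile normalization and cyclic loess.

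The remaining antagonists lay closer to 0. Notum, a carboxylesterase that strips the lipid from Wnt proteins, had 2661 and 1941 in the Gli2 shRNA and control arrays, and its 2 probes gave 0.18 and 0.11. Wif1, which binds Wnts, had 42.6 and 45.6 (-0.37 ± 0.25, and -0.23 with normexp). Kremen1, a Dkk receptor, had 4514 and 3453 on its brightest probe (0.11 ± 0.20), while its other probes gave -0.20 and -0.41. Kremen2, Frzb, Dkk1, Dkk2 and Dkk4 were measured on neither array.

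**Figure D4:**
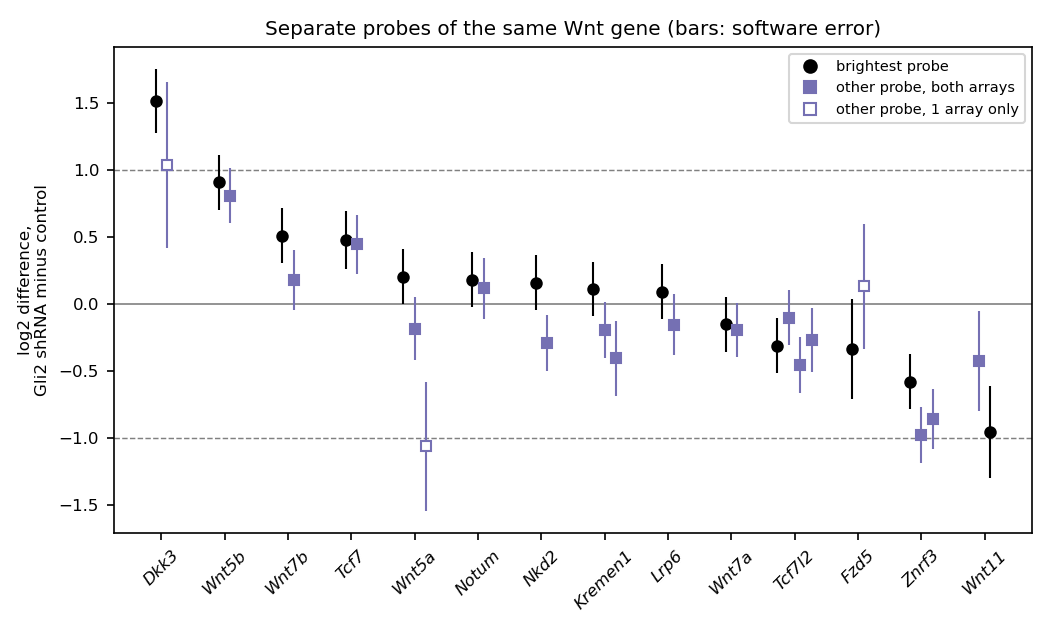
Log2 difference (Gli2 shRNA minus control) of each probe for the 14 Wnt genes with several probes measured on at least 1 array, ordered by the brightest probe (black circle). Other probes are purple squares, open where measured on 1 array only, and bars are the software error. The probes of Wnt5b, Tcf7 and Znrf3 lie on one side of 0, whereas those of Wnt5a, Nkd2, Kremen1, Lrp6 and Fzd5 lie on both.

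For 12 members several probes were measured on both arrays, and for 8 of them all such probes had the same sign. The exceptions were Wnt5a, Nkd2, Kremen1 and Lrp6, whose brightest probes were at most 0.20 from 0. For these 4 genes the values do not give a direction.

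The DNA-binding partners of beta-catenin were within 2-fold. Tcf7 had 133 in the Gli2 shRNA array and 79.1 in the control array (0.48 ± 0.22), 0.44 on a second probe and 0.13 with normexp. Tcf7l2 had 1410 and 1446 (-0.31 ± 0.20), and its 4 probes gave -0.46 to -0.11. Tcf7l1, mostly a repressor, differed by 0.19 ± 0.21, and Lef1 by -0.06 ± 0.20. The sign of Lef1 flipped with median scaling over all probes. Axin2, a scaffold of beta-catenin breakdown and a standard readout of the pathway, had 528 and 488 in the Gli2 shRNA and control arrays (-0.16 ± 0.20). Nkd1 and Nkd2, which bind Dishevelled and restrain the pathway, differed by 0.11 ± 0.21 and 0.16 ± 0.20, with -0.30 ± 0.21 on the other probe of Nkd2. The feedback genes Axin2, Nkd1 and Nkd2 thus lay within the software error of 0 on their brightest probes.

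Other genes of the pathway were taken from a list of 51 components outside the members. Of these 47 were measured on both arrays, and their median was -0.01. By 2-fold or more, 2 were higher and none lower, against 1.84% and 1.79% of all named genes measured on both arrays. Celsr3, a planar cell polarity cadherin of neurons, had 1581 in the Gli2 shRNA array and 588 in the control array (1.15 ± 0.20, 2.22-fold). Its other probes, near background, gave 0.70 ± 0.59 and -0.26 ± 0.34, and the mean of its probes measured on both arrays was 0.45. Ror2, a receptor tyrosine kinase for Wnt5a, had 315 and 122 (1.09 ± 0.21, 2.13-fold, and 0.87 with normexp). The components with the highest mean signal on their probes were all within 2-fold: the corepressor Tle2 differed by 0.30 ± 0.20, the kinase Csnk1d by -0.35 ± 0.20 and the beta-catenin cofactor Pygo2 by -0.01 ± 0.20. Beta-catenin itself (Ctnnb1) had 5264 and 5221 in the Gli2 shRNA and control arrays (-0.27 ± 0.20, and -0.01 on its other probe).

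A second list held 36 genes described as Wnt targets in various tissues, of which 24 were measured on both arrays, with a median of 0.05. Of these 24, only the homeobox gene Gbx2 was lower by 2-fold or more, against 1.79% of all named genes measured on both arrays. Its signals were 105 in the Gli2 shRNA array and 191 in the control array (-1.14 ± 0.21, 2.20-fold, and -0.78 with normexp). None of the 24 was higher by 2-fold or more, against 1.84% of all genes. Cldn1, a tight junction gene, was measured on the control array only (14.6 and 41.5 in the Gli2 shRNA and control arrays). Its bound was 3.31-fold lower. A bound of 2-fold or more lower was reached by 18.2% of all named genes measured on that array only. The 3 target genes with the highest mean signal, Ephb3 (-0.12 ± 0.20), Birc5 (-0.07 ± 0.20) and Ccnd1 (-0.22 ± 0.20), were within 2-fold. Myc differed by 0.06 ± 0.20.

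**Figure D5:**
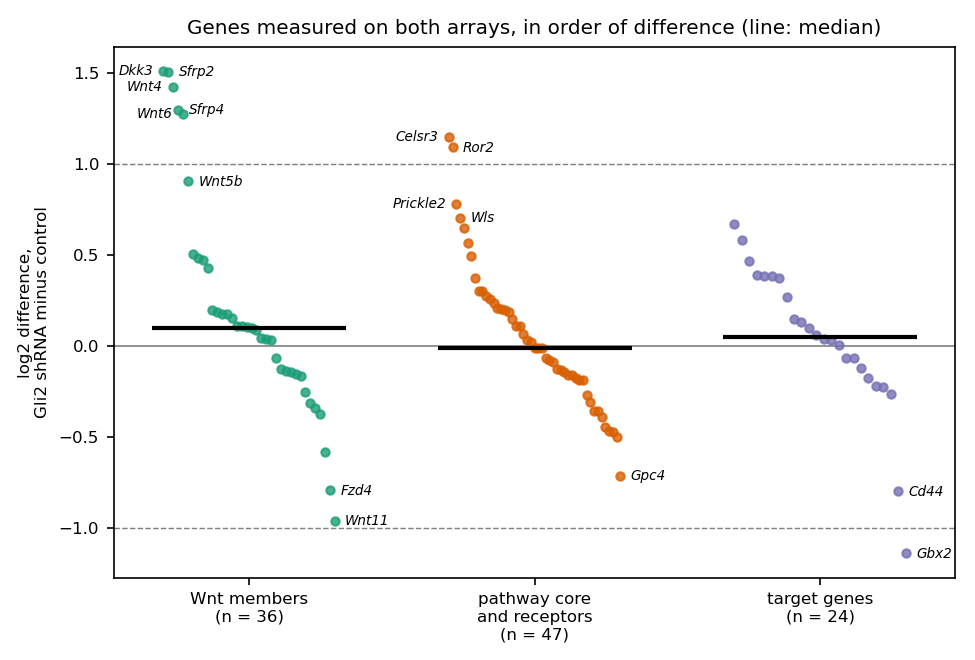
Log2 difference (Gli2 shRNA minus control) of the genes measured on both arrays in the Wnt set (36), in the list of other pathway components and receptors (47) and in the list of target genes (24), each in order of difference. Black lines are medians (0.10, -0.01 and 0.05), and dashed lines mark 2-fold. The upper tail past 2-fold holds 5, 2 and 0 genes in the 3 lists, against 1.84% of all named genes measured on both arrays.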

How the data were processed

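Total RNA of each group was labelled with Cy3 and hybridised to 1 array, per the labels' protocols. Both arrays shared a slide and a scan, per the file headers. The deposited scanner files hold the processed intensity, its modelled error, median spot and background intensities and 0 or 1 flags of other kinds, made with Agilent Feature Extraction 12.1.0.3 on design 074809 (grid build mm9), per the file headers. The authors' deposited value table holds log2 values, and its centring is not stated. Each column equalled the log2 processed intensity minus a constant (8.64 for Gli2 shRNA, 8.36 for control) for 99.9% of probes, within 0.001. Its column medians were -3.69 and -3.55.

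Non-control spots without outlier flags (191 of 59305 left out) were averaged per probe on the log2 scale and centred on each array's 75th percentile. Probes were named through their RefSeq accessions in the GRCm38.p6 gene table (34560 of 56595 matched 1 gene), and a gene was represented by its brightest probe. Fzd10os, an antisense RNA, was not counted as a member. For a gene measured on 1 array, a bound was computed with the dim array raised, where needed, to its lowest value well above background. With 1 array per group there was no test, and 2-fold served as the size rule. Named genes were all measured members, and in the other lists those past 2-fold and the 3 of highest mean signal. Ctnnb1, Myc and Cldn1 were named after their values were seen. The members and lists were chosen with earlier results of these data known. The size rule was tested on simulated data in which the changed genes had control signals above 100. That simulation did not cover the dimmer control signals of the members past 2-fold. Its noise was also smaller than the software error of the members measured on both arrays (median 0.205). Alternatives were run with limma 3.58.1 in R 4.3.3. Normexp used the median spot signal, because the files used here have no mean signal column. No depth applies, and the number of arrays limits the precision.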

Additional observations from a re-analysis of the deposited data

How the results depend on the processing

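No paired analysis was possible because each group has 1 array, and for the same reason no array could be left out. The count of members higher by 2-fold or more (5) was 0 with normexp and 1 when a signal of at least 50 was required on both arrays. No member was lower by 2-fold or more, but 1 was (Sfrp1) without the filter on dim probes. The pathway list held 2 higher genes, and 1 with normexp or with the mean of probes, and 0 lower genes, and 1 without the filter. The target list held 1 lower gene, 0 with normexp and 2 without the filter, and 0 higher genes, and 1 without the filter. The other settings left these counts within 1.5 times. The median of the members (0.10) ran from -0.02 without the filter to 0.24 with median scaling over all probes. That scaling, chosen after the data were seen, raised the median of all genes to 0.14 and the share of calls that were higher to 68.6%, against 50.8% with the 75th percentile. Without the filter, which adds probes at background, the share was 27.0%, and with normexp 40.1%, with 67 genes higher and 100 lower. Over all genes the counts of 268 higher and 260 lower became 769 and 2075 without the filter, and 150 and 147 with the signal minimum of 50. No gene past 2-fold or with a bound past it changed sign among the members, Gli2, Ror2, Celsr3 and Gbx2 in any setting run. Dim signals limit the sizes of Wnt4, Wnt6, Sfrp2, Dkk3 and Sfrp1.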

Other observations

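Some pathway genes short of 2-fold, chosen after their values were seen, act next to the Wnt ligands. Wls, the carrier that brings Wnt proteins to the cell surface, had a signal of 1232 in the Gli2 shRNA array and 623 in the control array (0.71 ± 0.20), while its other probe gave 610 and 479 (0.07). The 2 probes thus differ in size. Gpc4, a heparan sulfate proteoglycan of the cell surface, had 675 and 914 in the same order (-0.71 ± 0.20), and its other probes gave -0.51 and -0.63. All 3 Gpc4 probes were lower in Gli2 shRNA cells. Fzd10os, an antisense RNA beside Fzd10 that was not counted with the receptors, had 86.1 and 88.1 (-0.31 ± 0.22).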
